A study of Mus musculus with 12 samples.

Results

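Ketone bodies are the water-soluble fuel that the liver makes from fatty acids, and 6 genes of their handling were followed here in mouse fetal liver just before birth. They are 3 enzymes of the ketone body pathway (*Bdh1*, *Acat1* and *Oxct1*) and 3 monocarboxylate transporters (*Slc16a1*, *Slc16a6* and *Slc16a7*). The members were taken from a fixed list of names and matched to probesets with a single gene symbol, and all 6 of 6 were found among the 19938 genes measured, each with 1 probeset. *Oxct1* belongs to ketone body use rather than ketogenesis, so the group is described here as ketone body enzymes and monocarboxylate transporters.

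The arrays compared whole livers of 6 fetuses without PPARα (*Ppara*-/-, PPARa -/- in the labels) with those of 6 fetuses carrying it (*Ppara*+/+, PPARa +/+), all at E19.5, untreated, taken by cesarean section from heterozygous parents, with 1 array per liver. SV129 is the strain in the labels, and a different background is given in the methods of the study. The deletion was present in every tissue of the fetus, and the study's methods draw the livers of each genotype from fewer litters than livers, so some livers shared a litter and the p-values do not allow for that. A whole liver holds hepatocytes and blood-forming cells together, and fewer cells of a type and less RNA per cell cannot be told apart. The median log2 signal ranged from 6.71 to 6.75 over the arrays. *Ppara* itself was lower in every *Ppara*-/- liver (9.83 ± 0.09 against 10.84 ± 0.10, SD, n = 6), so no liver went against its label. Of the cell type markers, 10 of 11 hepatocyte markers, 8 of 8 erythroid and 10 of 10 granulocyte markers were not called, whereas *Tat* was lower and 2 of 10 macrophage markers, *Csf1r* and *Cd5l*, were higher. Beside these, 3.82% of all genes were called lower and 3.42% higher.

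In mitochondria of hepatocytes, a thiolase encoded by *Acat1* joins acetyl-CoA units from fatty acid oxidation into acetoacetyl-CoA, and after further steps *Bdh1* encodes the dehydrogenase that converts acetoacetate to β-hydroxybutyrate. The synthase and the lyase between these steps were not analysed here. Ketone bodies, lactate and pyruvate cross membranes through proton-linked carriers of the SLC16 family, and tissues outside the liver take ketone bodies back into acetyl-CoA with the transferase encoded by *Oxct1*. PPARα, a nuclear receptor activated by fatty acids, is known as a regulator of hepatic fatty acid oxidation and ketogenesis, and milk fat makes ketone bodies a major fuel of the newborn.

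Of the 6 members, 3 were called lower (*Bdh1*, *Acat1* and *Slc16a7*), 1 higher (*Oxct1*) and 2 not called (*Slc16a1* and *Slc16a6*), where called means a Benjamini-Hochberg adjusted p under 0.05 over all 19938 genes in limma. Over all genes 3.82% were called lower and 3.42% higher, 7.24% in either direction. With the mean of the 11 hepatocyte markers as a covariate (the hepatocyte score), *Bdh1* and *Oxct1* were not called (limma adjusted p = 0.22 and 0.33). *Tat*, 1 of these markers, was itself lower in *Ppara*-/- livers. With *Tat* left out of the score, a choice made after seeing the data, both were called (limma adjusted p = 0.0043 and 0.0037). The changes were small, from 1.17-fold to 1.41-fold for the 4 called genes. The median size of the log2 difference was 0.26 over the 6 members and 0.07 over all genes. This comparison is not of like genes, since 0 of the 6 members but 9957 of the 19938 genes lay below the median signal. The members were also chosen with earlier results known.

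**Figure D1:**
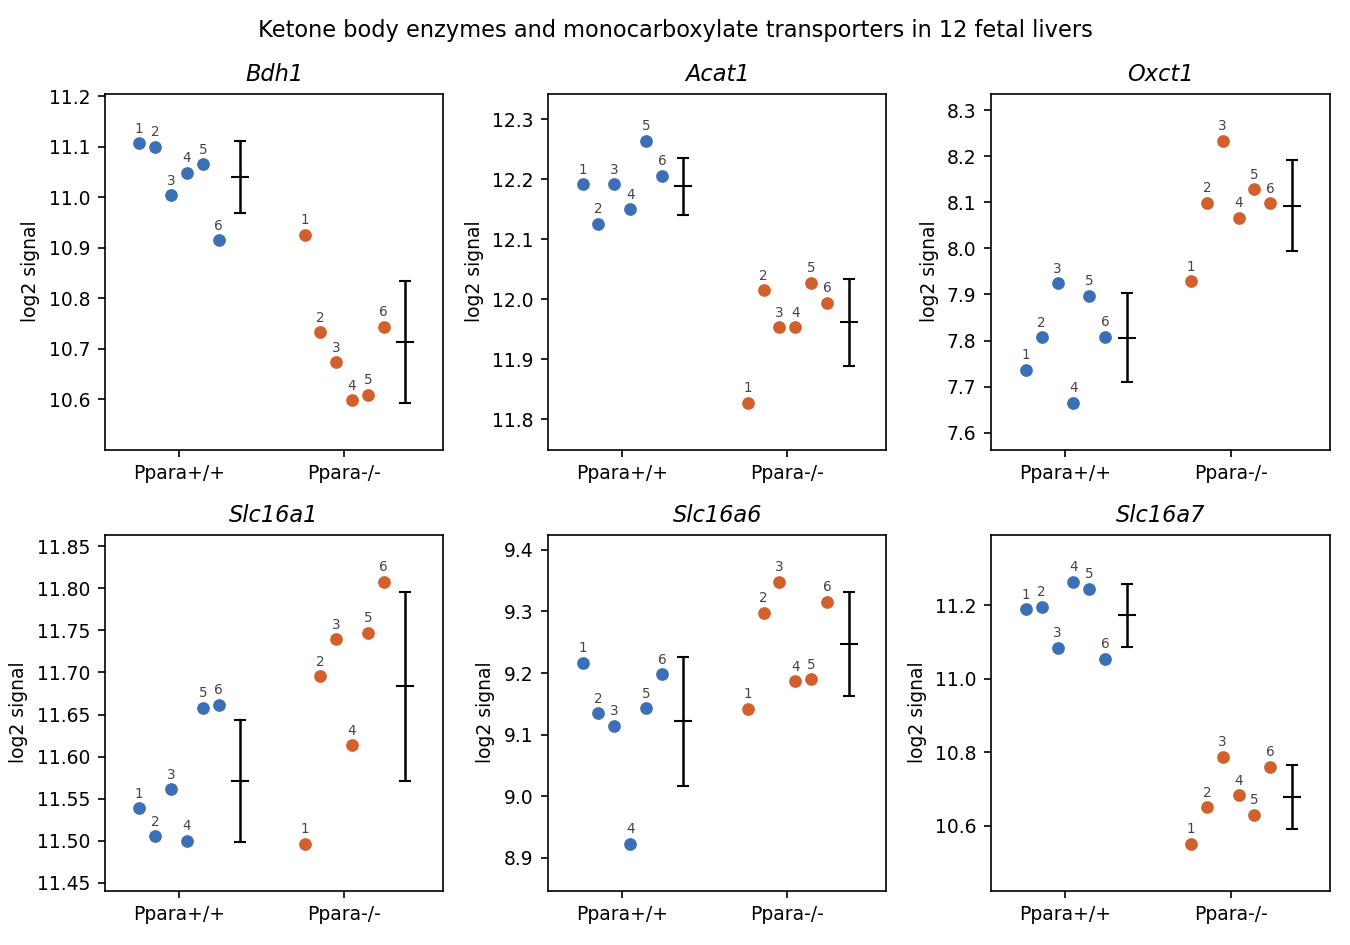
Log2 signal (y axis) of the 6 genes in each of the 12 fetal livers, by genotype (x axis), with the mouse number beside each point and a black bar at each group mean with its SD (n = 6). For *Slc16a7* the *Ppara*-/- livers lie at 10.55 to 10.79 and the *Ppara*+/+ livers at 11.05 to 11.26, whereas for *Slc16a1* the genotypes overlap.

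*Bdh1* (probeset 10434934) had a log2 signal of 10.93, 10.73, 10.67, 10.60, 10.61 and 10.74 in *Ppara*-/- mice 1 to 6. The *Ppara*+/+ livers read 11.11, 11.10, 11.00, 11.05, 11.07 and 10.92. Of the *Ppara*-/- livers, 5 were lower than every *Ppara*+/+ liver, and mouse 1 alone lay 0.01 above the lowest of them. The mean was 10.71 ± 0.12 (SD, n = 6) against 11.04 ± 0.07, a log2 difference of -0.33 (SE 0.06, limma adjusted p = 0.0035), which is 1.25-fold lower. Without mouse 1 the difference was -0.37 (limma adjusted p = 2.9e-04).

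The promoter table of RefSeq held 2 start sites for *Bdh1*, and the 250 bases before each are shown because *Bdh1* is the called member of ketone body synthesis with an entry. They were searched on both strands for the DR1 element that PPARα binds with its partner RXR (AGGTCANAGGTCA, where N is any base), which contains the half-site AGGTCA at both ends. Capitals mark the stretch closest to it, and the build is GRCm38.p6, plus strand, at chr16:31422047-31422296 for the first and chr16:31428503-31428752 for the second.
Bdh1 first start: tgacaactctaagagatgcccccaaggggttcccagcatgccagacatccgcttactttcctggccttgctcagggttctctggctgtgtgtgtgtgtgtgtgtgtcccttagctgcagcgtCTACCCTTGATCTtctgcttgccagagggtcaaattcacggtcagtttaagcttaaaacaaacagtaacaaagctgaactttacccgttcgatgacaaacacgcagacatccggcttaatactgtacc
Bdh1 second start: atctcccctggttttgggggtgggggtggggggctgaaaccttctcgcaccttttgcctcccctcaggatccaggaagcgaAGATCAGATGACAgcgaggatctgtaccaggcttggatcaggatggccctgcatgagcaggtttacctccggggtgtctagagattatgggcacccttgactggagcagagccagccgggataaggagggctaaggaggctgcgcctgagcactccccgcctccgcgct
The best stretch of the second window differed from the element at 3 of its fixed letters, and that of the first at 4, where another stretch matched as well. The marked stretch of the first window matches when read on the opposite strand, and that of the second as printed. Of all 32851 promoter windows of this length, 21.3% held a stretch with at most 3 mismatches and 74.5% one with at most 4, so these matches are of a common kind. An exact half-site was in neither *Bdh1* window and in 14% of all windows. This is a description of letters and says nothing of binding.

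*Acat1* (probeset 10593591), the thiolase of the first step and also of isoleucine breakdown, read 11.83, 12.01, 11.95, 11.95, 12.03 and 11.99 in *Ppara*-/- mice 1 to 6. The *Ppara*+/+ livers read 12.19, 12.13, 12.19, 12.15, 12.26 and 12.21. The groups did not overlap, as was the case for 3 of the 6 members. Over all genes 3.59% did not overlap, 2.29% with the knockout lower. The mean was 11.96 ± 0.07 (SD, n = 6) against 12.19 ± 0.05, a log2 difference of -0.23 (SE 0.04, limma adjusted p = 0.0067). That is 1.17-fold lower, the smallest change among the called members.

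*Oxct1* (probeset 10422608), the transferase that activates acetoacetate for use as fuel, read 7.93, 8.10, 8.23, 8.07, 8.13 and 8.10 in *Ppara*-/- mice 1 to 6 and 7.74, 7.81, 7.92, 7.67, 7.90 and 7.81 in the *Ppara*+/+ livers. All *Ppara*-/- livers lay above all *Ppara*+/+ livers, by 0.0047 between the closest of them, *Ppara*-/- mouse 1 and *Ppara*+/+ mouse 3. Over all genes 1.30% did not overlap with the knockout higher. The mean was 8.09 ± 0.10 (SD, n = 6) against 7.81 ± 0.10, a log2 difference of 0.29 (SE 0.06, limma adjusted p = 0.0079), which is 1.22-fold higher. Of the 10 macrophage markers 2 were called higher, where 3.42% of all genes were. They were *Csf1r*, by 0.23 (limma adjusted p = 0.0096) with no overlap between genotypes, and *Cd5l*, by 0.40 (limma adjusted p = 0.041). The median log2 difference of the 10 markers was 0.07, beside 0.01 over all genes. The summed linear signal of the markers overlapped, at 6785 to 7797 in *Ppara*-/- and 6467 to 6929 in *Ppara*+/+ livers. With the mean of the 10 macrophage markers as a covariate the difference of *Oxct1* was 0.24 (limma adjusted p = 0.076).

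The start of *Oxct1* is shown beside those of *Bdh1* because these called genes moved in opposite directions. The 250 bases before it lie at chr15:4026178-4026427, plus strand, GRCm38.p6.
Oxct1: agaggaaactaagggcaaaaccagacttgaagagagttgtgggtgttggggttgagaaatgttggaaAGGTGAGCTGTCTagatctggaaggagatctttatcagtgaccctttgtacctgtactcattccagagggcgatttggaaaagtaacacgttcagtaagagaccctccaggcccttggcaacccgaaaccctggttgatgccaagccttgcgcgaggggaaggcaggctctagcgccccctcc
Capitals mark the stretch closest to the DR1 element, with 4 mismatches, as in the first *Bdh1* window, and another stretch matched as well. It held no exact half-site either. The window before *Slc16a1* had 4 mismatches at best, no exact half-site and 76.4% G and C, against 52% for *Oxct1* and 49.6% and 60.8% for the windows of *Bdh1*. Of the 6 members, 3 had an entry in the table, and *Acat1*, *Slc16a6* and *Slc16a7* had none.

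*Slc16a7*, which encodes MCT2, a carrier with high affinity for pyruvate and ketone bodies, changed the most among the 6 genes. The probeset (10372988) read 10.55, 10.65, 10.79, 10.68, 10.63 and 10.76 in *Ppara*-/- mice 1 to 6. The *Ppara*+/+ livers read 11.19, 11.20, 11.08, 11.26, 11.25 and 11.05. The groups were separated by 0.27, more than the range within either genotype. The mean was 10.68 ± 0.09 (SD, n = 6) against 11.17 ± 0.08, a log2 difference of -0.50 (SE 0.05, limma adjusted p = 4.7e-05), which is 1.41-fold lower.

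*Slc16a1*, which encodes MCT1, the widely expressed carrier of lactate and ketone bodies, was not called. It read 11.50, 11.70, 11.74, 11.61, 11.75 and 11.81 in *Ppara*-/- mice 1 to 6 and 11.54, 11.51, 11.56, 11.50, 11.66 and 11.66 in the *Ppara*+/+ livers. Mouse 1 was the lowest of all 12 livers, while 4 *Ppara*-/- livers lay above all *Ppara*+/+ livers. The log2 difference was 0.11, with a 95% interval of -0.0074 to 0.23 (limma adjusted p = 0.28). Without mouse 1 it was 0.15 (limma adjusted p = 0.068).

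*Slc16a6*, which encodes MCT7, a carrier linked to ketone body export from hepatocytes, was not called either. It read 9.14, 9.30, 9.35, 9.19, 9.19 and 9.32 in *Ppara*-/- mice 1 to 6 and 9.22, 9.13, 9.11, 8.92, 9.14 and 9.20 in their *Ppara*+/+ counterparts. The genotypes overlapped, with 3 *Ppara*-/- livers above all *Ppara*+/+ livers. The log2 difference was 0.13 with a 95% interval of 0.0044 to 0.25 (limma unadjusted p = 0.043, adjusted p = 0.22). An unadjusted p under 0.05 was reached by 20.9% of all genes.

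Whether 2 members changed unequally was tested on the per-liver difference of their log2 signals, with an exact two-sided permutation test over the 12 livers and p-values adjusted over the 15 pairs. The smallest p this design allows is 0.00216, and 8 pairs reached it (adjusted p = 0.0041). In all, 13 pairs passed. The change of *Oxct1* lay above that of *Bdh1* by 0.61 and above that of *Acat1* by 0.51 on the log2 scale (both adjusted p = 0.0041, exact permutation), and in both cases the per-liver differences did not overlap between genotypes. Within the transporters, the change of *Slc16a7* lay below that of *Slc16a1* by 0.61 and below that of *Slc16a6* by 0.62 (both adjusted p = 0.0041, exact permutation). *Slc16a7* also fell further than *Acat1*, by 0.27 (adjusted p = 0.0041, exact permutation). It fell further than *Bdh1* by 0.17 (adjusted p = 0.022, exact permutation), which did not pass without *Ppara*+/+ mouse 4, 5 or 6 (0.067, 0.067 and 0.062). The change of *Oxct1* lay above that of *Slc16a1* by 0.17 and above that of *Slc16a6* by 0.16 (adjusted p = 0.0089 and 0.011, exact permutation). The pairs that did not pass were *Bdh1* with *Acat1* (-0.10, adjusted p = 0.28, exact permutation) and *Slc16a1* with *Slc16a6* (-0.01, adjusted p = 0.80, exact permutation). Without *Ppara*-/- mouse 1 the change of *Bdh1* lay below that of *Acat1* by 0.17 (adjusted p = 0.017, exact permutation).

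Among the *Ppara*-/- livers mouse 1 was the highest for *Bdh1* and the lowest for the other 5 genes. For *Bdh1* and *Slc16a6* it thereby lay within the *Ppara*+/+ range and for *Oxct1* it was the nearest to it. For *Acat1* and *Slc16a7* it was the one farthest from it. Without it the calls of the 6 members were as with it.

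The ketone body list, with enzymes of acetoacetate and short-chain acyl-CoA, receptors and sirtuin or deacetylase genes, had 16 of 20 genes measured. Of these 3 were lower, 2 higher and 11 not called, with a median log2 difference of 0.01 beside 0.01 over all genes. The median size of the difference was 0.21 beside 0.07. These counts and medians include members. Of the 13 other genes 1 was lower and 1 higher, where 7.24% of all genes were called, and their median size of the difference was 0.12. Besides the members, *Acsm3*, a mitochondrial medium-chain acyl-CoA synthetase, fell by 0.78 on the log2 scale (9.35 ± 0.14 against 10.13 ± 0.11, SD, n = 6, limma adjusted p = 5.1e-06). Its *Ppara*-/- livers lay between 9.12 and 9.48, and the lowest *Ppara*+/+ liver lay 0.51 above the highest of them.

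*Hcar2*, the receptor through which β-hydroxybutyrate and nicotinic acid restrain lipolysis, was 1.82-fold higher. It read 5.95, 6.85, 6.96, 7.20, 6.38 and 6.51 in *Ppara*-/- mice 1 to 6 and 5.82, 5.64, 5.79, 5.70, 5.66 and 6.06 in the *Ppara*+/+ livers. In all, 5 *Ppara*-/- livers lay above all *Ppara*+/+ livers, mouse 1 lay within their range, and all *Ppara*+/+ signals were below the lowest array median of 6.71. The log2 difference was 0.86 (SE 0.17, limma adjusted p = 0.0061) and 1.0 without mouse 1 (limma adjusted p = 2.2e-04). *Hcar2* is known from macrophages and neutrophils as well as fat cells, and with the macrophage score as a covariate its difference was 0.70 (limma adjusted p = 0.067). With the hepatocyte score it was 0.51 (limma adjusted p = 0.34).

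Among the genes of the list that were not called, the smallest p-values were those of *Hmgcs1*, *Hmgcll1*, *Acss2* and *Bdh2*. *Hmgcs1*, the cytosolic synthase of cholesterol synthesis, differed by -0.20 (limma adjusted p = 0.067), with no overlap between genotypes. *Hmgcll1*, a lyase outside mitochondria, differed by 0.24 (limma adjusted p = 0.10). *Acss2*, the cytosolic acetyl-CoA synthetase, differed by 0.40 (limma adjusted p = 0.14) and *Bdh2*, a cytosolic dehydrogenase, by 0.22 (limma adjusted p = 0.21). Without *Ppara*-/- mouse 1 *Acss2* was higher by 0.54 (limma adjusted p = 0.0052) and *Hmgcll1* by 0.28 (limma adjusted p = 0.040). *Hmgcs1* was called without *Ppara*+/+ mouse 6 (-0.22, limma adjusted p = 0.044), among probesets above the 25th or the 50th percentile (limma adjusted p = 0.048 and 0.031), with intensity trend and robust settings (limma adjusted p = 0.029) and with array weights (limma adjusted p = 0.042). Array weights also called *Hmgcll1* (0.30, limma adjusted p = 0.040) and *Acss2* (0.46, limma adjusted p = 0.027), whereas *Acss2* was 0.18 with the hepatocyte score (limma adjusted p = 0.91).

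**Figure D2:**
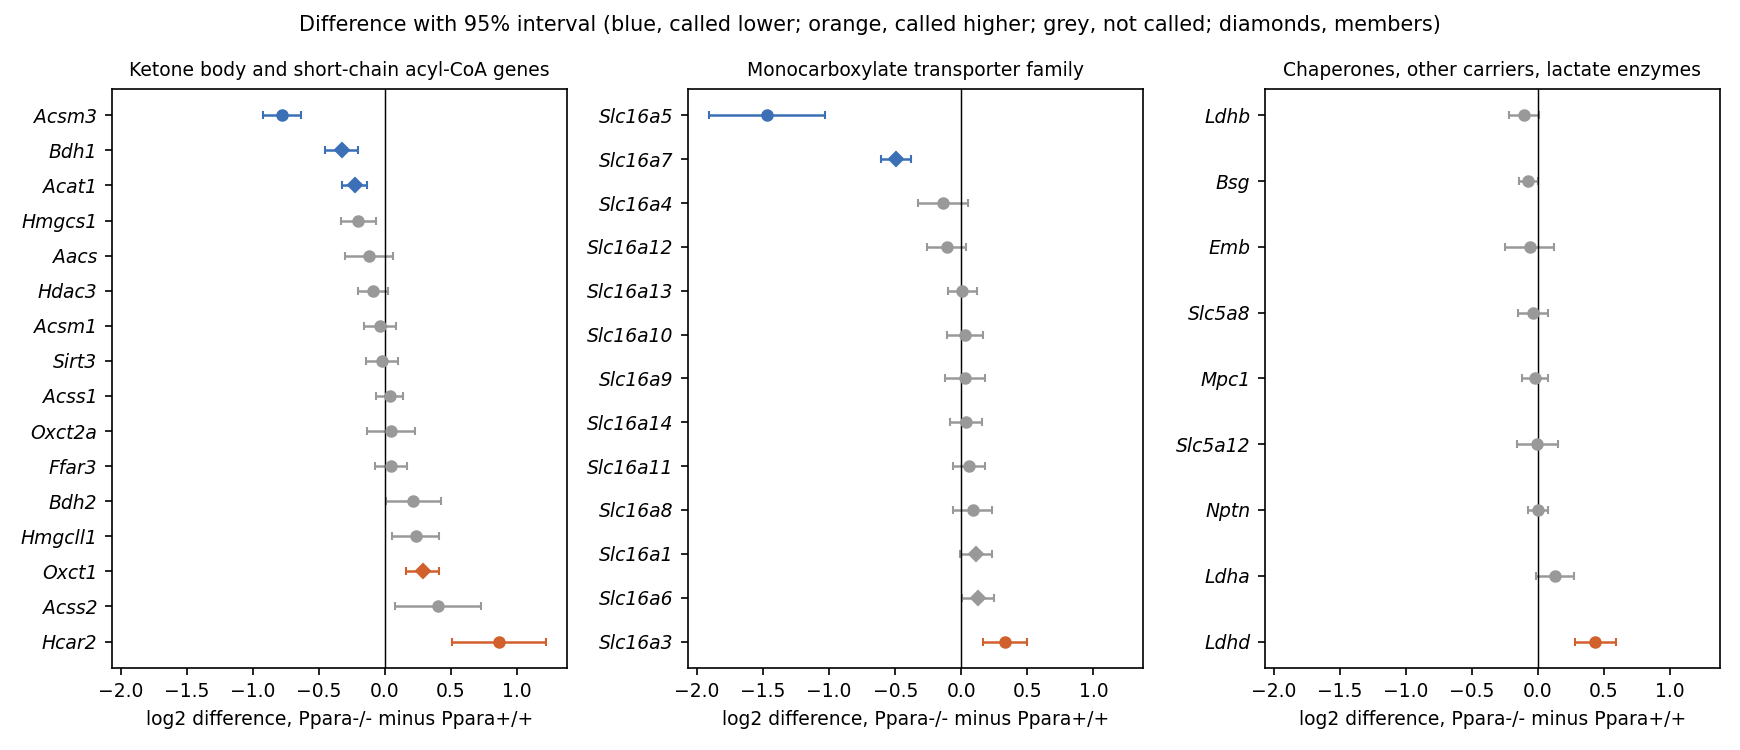
Log2 difference, *Ppara*-/- minus *Ppara*+/+ (x axis), with its 95% interval for each measured gene (y axis) of the ketone body list, the SLC16 family and the list of chaperones, other carriers and lactate enzymes. *Slc16a5*, at -1.47, and *Acsm3*, at -0.78, lie farthest to the left and *Hcar2*, at 0.86, farthest to the right.

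In the SLC16 family 13 of 14 genes were measured, of which 2 were lower, 1 higher and 10 not called, with a median log2 difference of 0.03. Of the 10 that are not members 1 was lower and 1 higher, where 7.24% of all genes were called. *Slc16a5*, which encodes MCT6, had the largest difference of the family. It read 6.20, 5.56, 5.73, 5.70, 5.66 and 5.99 in *Ppara*-/- mice 1 to 6 and 7.54, 7.86, 7.50, 7.55, 6.81 and 6.42 in the *Ppara*+/+ livers. Every *Ppara*-/- liver was lower than every *Ppara*+/+ liver and than the lowest array median of 6.71, and *Ppara*+/+ mice 5 and 6 were the lowest of their group. The log2 difference was -1.47 (SE 0.20, limma adjusted p = 5.6e-04), which is 2.78-fold lower. It was -0.89 with the hepatocyte score (limma adjusted p = 0.022) and -0.85 within the 6 highest animal numbers (limma adjusted p = 0.025), called under both.

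*Slc16a3*, which encodes MCT4, the lactate exporter of glycolytic cells, was higher by 0.33 (9.56 ± 0.16 against 9.23 ± 0.13, SD, n = 6, limma adjusted p = 0.019). In all, 5 *Ppara*-/- livers, at 9.60 to 9.67, lay above all *Ppara*+/+ livers, at 9.02 to 9.41, and mouse 1 read 9.24. The call ended without *Ppara*-/- mouse 2 (limma adjusted p = 0.052), and without mouse 1 the difference was 0.40 (limma adjusted p = 7.9e-04). With the macrophage score the difference was 0.34 (limma adjusted p = 0.083), with the hepatocyte score 0.20 (limma adjusted p = 0.55) and with a block for low or high animal numbers 0.31 (limma adjusted p = 0.051), so the call ended under each. Of the others in the family, *Slc16a12*, a creatine carrier, differed by -0.11 (limma adjusted p = 0.42) and *Slc16a4* by -0.13 (limma adjusted p = 0.44), and the remaining genes outside the member list had differences between 0.0082 and 0.09.

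**Figure D3:**
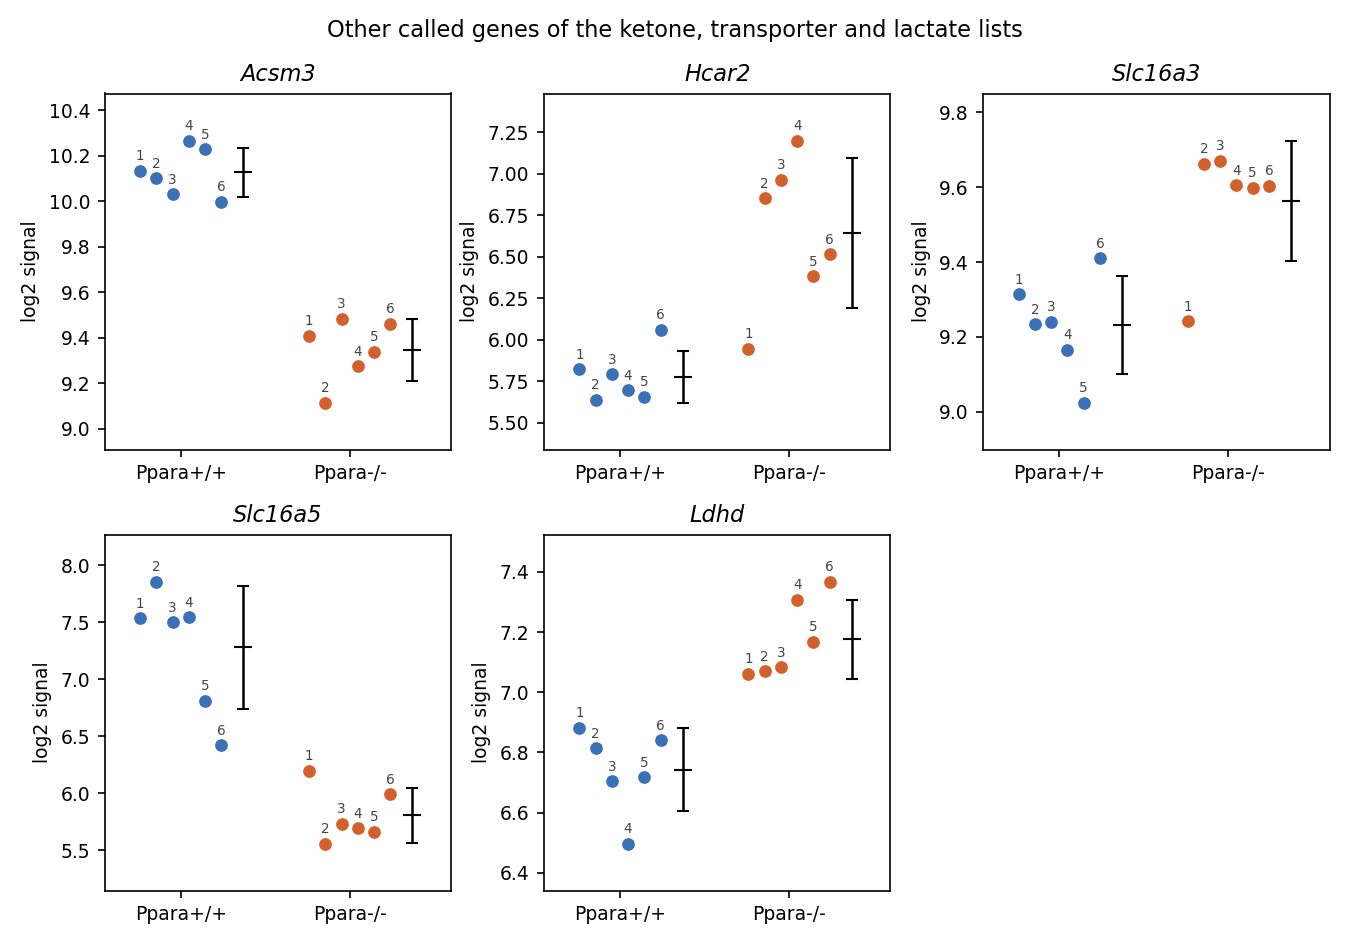
Log2 signal (y axis) in each fetal liver, by genotype (x axis), of the 5 called genes of the lists that are not members, with the mouse number beside each point and a black bar at each group mean with its SD (n = 6). *Slc16a5*, *Acsm3* and *Ldhd* do not overlap between genotypes, and *Ppara*-/- mouse 1 lies among the *Ppara*+/+ livers for *Hcar2*, at 5.95, and *Slc16a3*, at 9.24.

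The third list held the chaperones that carry MCT proteins to the membrane, sodium-coupled carriers, the mitochondrial pyruvate carrier and lactate dehydrogenases, with 9 of 10 genes measured. Of these 1 was called, where 7.24% of all genes were. It was *Ldhd*, the mitochondrial D-lactate dehydrogenase, which was 1.35-fold higher (7.18 ± 0.13 against 6.74 ± 0.14, SD, n = 6, limma adjusted p = 0.0025) with no overlap between genotypes. With the hepatocyte score its difference was 0.33 (limma adjusted p = 0.15). *Bsg*, the chaperone basigin of MCT1 and MCT4, had a difference of -0.07 (limma adjusted p = 0.25), although its *Ppara*-/- livers, at 12.03 to 12.08, all lay below the lowest *Ppara*+/+ liver, at 12.09. *Ldhb* differed by -0.11 (limma adjusted p = 0.28), *Ldha* by 0.13 (limma adjusted p = 0.30) and *Slc5a8*, a sodium-coupled carrier of monocarboxylates, by -0.04 (limma adjusted p = 0.77). Without *Ppara*-/- mouse 1 *Ldha* was higher by 0.19 (limma adjusted p = 0.020).

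Likeness to each member was measured by the correlation over the 12 livers of log2 signals with the genotype mean removed, among genes above the median signal, and it is given as a description because the highest values over many genes were taken. The closest gene was *Cspp1* for *Bdh1* (Pearson r 0.92, Spearman rho 0.75), *Rfxap* for *Acat1* (0.92 and 0.90) and *Trmt2b* for *Oxct1* (0.95 and 0.84). It was *Nsmaf* for *Slc16a1* (0.97 and 0.96), *Tm7sf2* for *Slc16a6* (0.92 and 0.89) and *Mpeg1* for *Slc16a7* (0.96 and 0.96). Without the 2 livers farthest from each member's median, r was between 0.85 and 0.96. Of these 6 genes only *Mpeg1* was called between genotypes, higher by 0.18 (limma adjusted p = 0.025), while *Slc16a7* was lower.

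**Figure D4:**
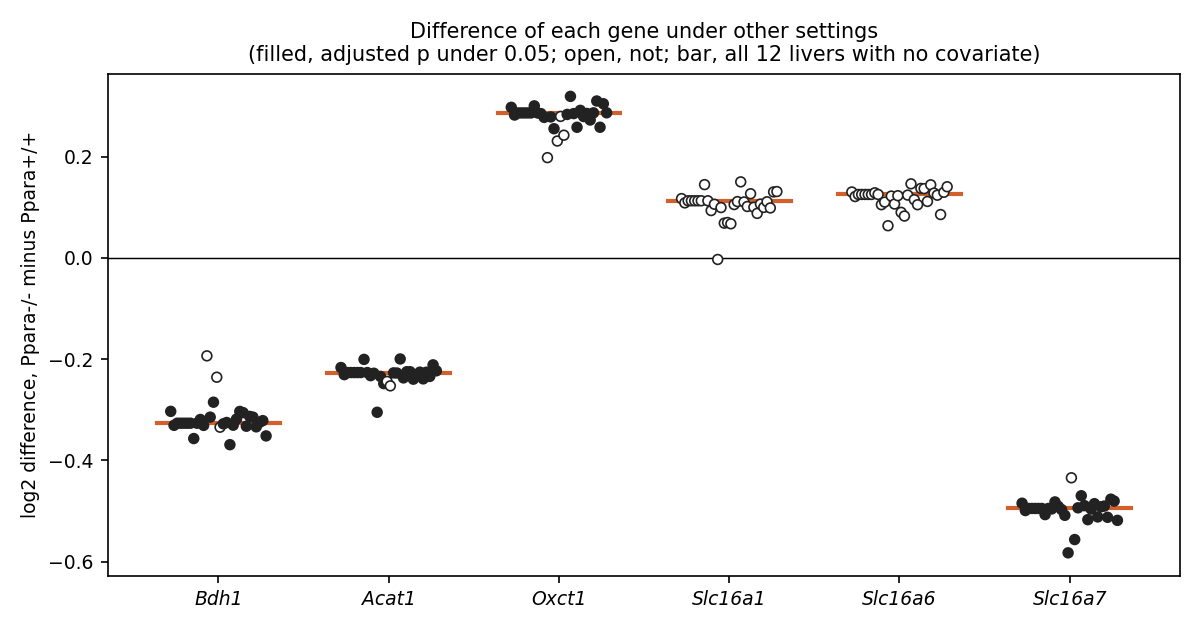
Log2 difference, *Ppara*-/- minus *Ppara*+/+ (y axis), of the 6 genes (x axis) under each other setting fitted with limma, with filled points where adjusted p was under 0.05, open points where it was not, and an orange bar for the comparison of all 12 livers with no covariate. *Slc16a1* lies at -0.0033 with the hepatocyte score as a covariate and at 0.11 with that score without *Tat*, and the other 5 genes keep their sign throughout.

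Of the hepatocyte markers, only *Tat*, tyrosine aminotransferase, was called. *Tat* averaged 10.08 ± 0.89 (SD, n = 6) in *Ppara*-/- and 11.69 ± 0.83 in *Ppara*+/+ livers (limma adjusted p = 0.031), and the summed linear signal of the 11 markers was 94578 to 98728 and 94695 to 101421. With their mean as a covariate the difference of *Bdh1* was -0.19 (limma adjusted p = 0.22) and that of *Oxct1* 0.20 (limma adjusted p = 0.33). With the mean of the markers other than *Tat* they were -0.33 (limma adjusted p = 0.0043) and 0.28 (limma adjusted p = 0.0037). Over all genes 757 were then called lower and 748 higher, beside 173 and 58 with *Tat* in the score. *Slc16a7* (-0.49) and *Acat1* (-0.31) were called with the full score too. The erythroid score left the calls of the 6 members as they were. Its markers had a summed signal of 21840 to 23788 in *Ppara*-/- and 19636 to 23194 in *Ppara*+/+ livers.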

How the data were processed

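Whole livers of 6 Ppara-/- and 6 Ppara+/+ fetuses were hybridized, each to its own Mouse Gene 1.0 ST array from Affymetrix. The values that the authors deposited are on the log2 scale and, per the labels, came from RMA, which corrects background, normalizes arrays and summarises probesets. For RMA's version and the genome build, the sources used here give none. Arrays carry no read depth, and 6 per genotype limit the precision.

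Of 35556 probesets, 21789 had 1 gene symbol, 1621 several and 12146 none. The probeset of highest mean per gene gave 19938 genes, and dim signals were kept. Groups came from the titles. Differences were tested two-sided over all genes in R 4.3.3 by the moderated linear model of limma 3.58.1 (lmFit, eBayes), without covariates and with Benjamini-Hochberg adjustment, after a test on simulated data. Permutation tests and figures used Python 3.11.15.

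The members and gene lists were chosen with earlier results of these data known. Named genes were the members, *Ppara*, each called list gene, up to 4 uncalled genes per list of smallest p and the genes most like a member, of which the closest is given. Marker genes outside this rule were named after their values were seen. Marker lists for megakaryocytes, endothelium, stellate cells and bile duct cells were measured too, and among them only *Des* was called lower and *Reln* higher. Other settings were another normalization, signal filters, probeset summaries, variance models, covariates, blocks, leaving out each liver and the exact Mann-Whitney test.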

Additional observations from a re-analysis of the deposited data

Results flagged for a closer look

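Among the 12 groups of 6 livers formed by 6 genes and both genotypes, 2 held a liver that stood apart by Dixon's criterion, and chance marks about 1 in 20. *Acat1* in *Ppara*-/- mouse 1 read 11.83, against 11.95 for the next lowest liver of its group, and without it the log2 difference was -0.20 (limma adjusted p = 0.0054). *Slc16a6* in *Ppara*+/+ mouse 4 read 8.92, against 9.11 for the next lowest, and without it the difference was 0.09 (limma adjusted p = 0.39).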

How the results depend on the processing

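The number of livers, 6 a genotype, limits the precision of every value. Among the settings fitted on 11 or more livers, the calls of the 6 members stayed on their side of the threshold except as follows. With the hepatocyte score, *Bdh1* (-0.19, limma adjusted p = 0.22) and *Oxct1* (0.20, limma adjusted p = 0.33) were not called and *Slc16a1* turned to -0.0033. With it the uncalled *Slc16a12* (0.0841), *Slc16a4* (0.0072) and *Ldha* (-0.0626) turned too, 0 members were higher, 2 ketone and 0 partner list genes were called, and over all genes 173 were lower and 58 higher, beside 761 and 682. With *Tat* left out of the score *Slc16a1* was 0.11, and 5 ketone, 3 SLC16 and 1 partner list genes were called. With the macrophage score, chosen after seeing the data as was the score without *Tat*, *Oxct1* (0.24, limma adjusted p = 0.076) was not called, *Slc5a8* turned to 0.0049, 0 members were higher, 3 ketone list genes were called, and 430 genes were lower and 154 higher. Array weights called 8 ketone list genes, 1457 genes lower and 1286 higher. The sex score gave 449 lower and 401 higher, and a block for low or high animal numbers 422 higher. Above the 50th percentile 0 partner list genes were called, because the mean signal of *Ldhd* lay below that cut and *Ldhd* was not tested there.

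The 6 lowest animal numbers held *Ppara*-/- mice 1 and 2 and *Ppara*+/+ mice 1 to 4. The 6 highest held *Ppara*-/- mice 3 to 6 and *Ppara*+/+ mice 5 and 6. *Ppara*-/- mice 2 to 6 carried consecutive animal numbers with no *Ppara*+/+ liver among them, so genotype and animal number were partly confounded. With groups this small and uneven, a call lost within either set cannot tell whether the difference was absent there. Within the 6 lowest animal numbers *Bdh1* was -0.24, *Acat1* -0.24 and *Oxct1* 0.23, with 1 member lower and 0 higher, 1 ketone and 0 partner list genes called, and 163 genes lower and 30 higher. Within the 6 highest, *Bdh1* was -0.33, *Acat1* -0.25, *Oxct1* 0.28, *Slc16a7* -0.43, *Slc16a12* 0.011 and *Slc16a4* 0.0222, with 0 members lower and 0 higher, 1 ketone, 1 SLC16 and 0 partner list genes called, and 106 genes lower and 117 higher. The exact Mann-Whitney test called 0 genes (3681 at an unadjusted p under 0.05), and so none of *Bdh1* (-0.33), *Acat1* (-0.23), *Oxct1* (0.29) or *Slc16a7* (-0.50). Its smallest p with 6 livers a genotype, 0.00216, became an adjusted p of 0.060 here. No gene could pass it, and *Ppara* itself was at 0.060, so it cannot weigh on the calls.

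Leaving out 1 liver at a time gave log2 differences of *Bdh1* -0.37 to -0.30, *Acat1* -0.24 to -0.20, *Oxct1* 0.26 to 0.32, *Slc16a7* -0.52 to -0.47, all called. It gave 447 to 1147 genes lower and 384 to 1374 higher, both highest without *Ppara*-/- mouse 1, and 1 to 2 partner list genes. The change of *Bdh1* against *Acat1* ranged from -0.17 to -0.0661, *Bdh1* against *Slc16a7* from 0.10 to 0.20 and *Slc16a1* against *Slc16a6* from -0.038 to 0.0131, above 0 without *Ppara*-/- mouse 1 (0.0039) and *Ppara*+/+ mice 4 (0.0131) and 5 (7.4e-04).

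Same-numbered livers were not shown to be paired, since their deviations correlated at 0.02 to 0.39, over 0.1 for 4 of 6, and 3 of 6 *Ppara*-/- and 2 of 6 *Ppara*+/+ livers correlated best with their own number. With the replicate number as a block *Bdh1* was -0.33 (limma adjusted p = 0.0068), *Acat1* -0.23 (0.016), *Oxct1* 0.29 (0.0049) and *Slc16a7* -0.50 (0.0017), no member's call changed, and 823 genes were lower and 796 higher.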
